A study of Mus musculus with 9 samples.

Results

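Amino acids do not cross cell membranes unaided, and a liver that makes urea, glutamine, glutathione, plasma proteins and bile acid conjugates depends on membrane carriers for its supply. The carriers described here are the genes of the families Slc1, Slc3, Slc6, Slc7, Slc36, Slc38 and Slc43, taken by gene symbol alone, without Slc7a11 and Slc1a2. They number 49 of the 21470 genes in the table, with 14 in Slc6, 10 each in Slc7 and Slc38, 6 in Slc1, 4 in Slc36, 3 in Slc43 and 2 in Slc3. The rule used no expression value, but it was set with earlier results of these data known. Most Slc38, Slc1 and Slc6 proteins draw their substrates in with sodium. Many Slc7 proteins are light chains that reach the cell surface only when bound to an Slc3 heavy chain, and they exchange one amino acid for another. Some Slc36 carriers move small amino acids together with protons. Slc43 proteins let neutral amino acids or, in the case of Slc43a3, purine bases pass by facilitated diffusion. Several Slc6 carriers, although of the same families, carry osmolytes, creatine or transmitters and not the amino acids of protein.

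RNA was sequenced from whole mouse liver in 9 libraries. In 3 of them the mice had their bile duct ligated and were given ligustilide, a phthalide of Angelica and Ligusticum roots (BDL+LIG). Another 3 came from mice with bile duct ligation alone (BDL), an operation that holds back bile and scars the liver, and the last 3 from sham-operated mice (sham). The design text gives ligustilide at 10 mg/kg, while the sample titles carry the number 20, so the dose is uncertain. Strain, sex, age, the time after surgery and whether the BDL and sham mice received vehicle were not stated in the sources used here. Nothing says that the 3 libraries of a group came from separate mice, so the p-values rest on a spread between libraries that may be only technical. Levels are in FPKM, in which the fragments of a gene are divided by the length of its transcript and by the depth of the library, so that levels of different genes compare per length. Changes are differences of log2(FPKM + 1) ± standard error (SE), which understate the change of genes near or under 1 FPKM, while folds are ratios of group means. A gene is called changed where its adjusted p is under 0.05.

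The libraries held between 30893098 and 37381734 recovered fragments. Sham library 1 stood apart from the rest of its group, with a correlation of log2 values of 0.974 and 0.964 with sham libraries 2 and 3, which correlated at 0.989 with each other. BDL libraries were the most alike, at 0.993 to 0.996. Markers of the liver's cell types moved with the groups. The summed level of 6 hepatocyte markers was 35794 to 44870 FPKM in BDL+LIG, 29765 to 36528 FPKM in BDL and 49896 to 58450 FPKM in sham. That of 7 cholangiocyte markers was 219 to 458, 408 to 603 and 19.4 to 35.6 FPKM in the same order of groups, with Cftr under 1 FPKM in all libraries. By group mean, most of that sum came from Spp1, at 314, 472 and 21.5 FPKM. All 7 cholangiocyte markers had a higher mean in BDL than in sham, and 5 of them in BDL+LIG than in BDL. The summed level of 7 macrophage markers was 502 to 1036, 403 to 552 and 91.1 to 154 FPKM, and all 7 had a higher mean in BDL than in sham and in BDL+LIG than in BDL. In bulk liver, fewer cells of a type and less RNA per cell cannot be told apart.

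Few of the carriers carried most of the RNA. Of the 49, 22 reached 1 FPKM in at least 3 libraries and were tested, 24 stayed under 1 FPKM in all 9 libraries, and 16 stayed under 0.1 FPKM in all of them. The summed FPKM of all members was 1030.2, 849 and 893 in the 3 BDL+LIG libraries, 731, 735 and 737 in BDL, and 1172, 833 and 797 in sham. Slc38a3, Slc38a4, Slc6a13 and Slc7a2 made up 78.7% to 82.3% of that sum in BDL+LIG, 82.0% to 83.1% in BDL and 85.0% to 86.5% in sham. Slc38a3 ranked 197 by mean level among all genes of the table, Slc38a4 330, Slc6a13 641 and Slc7a2 1246. The 10 carriers of highest mean followed the order Slc38a3, Slc38a4, Slc6a13, Slc7a2, Slc6a12, Slc3a1, Slc38a10, Slc38a2, Slc6a6 and Slc6a9. Over all 9 libraries only Slc6a13 was separated from both neighbours in that order, and the ranges of all the other neighbours overlapped.

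**Figure D1:**
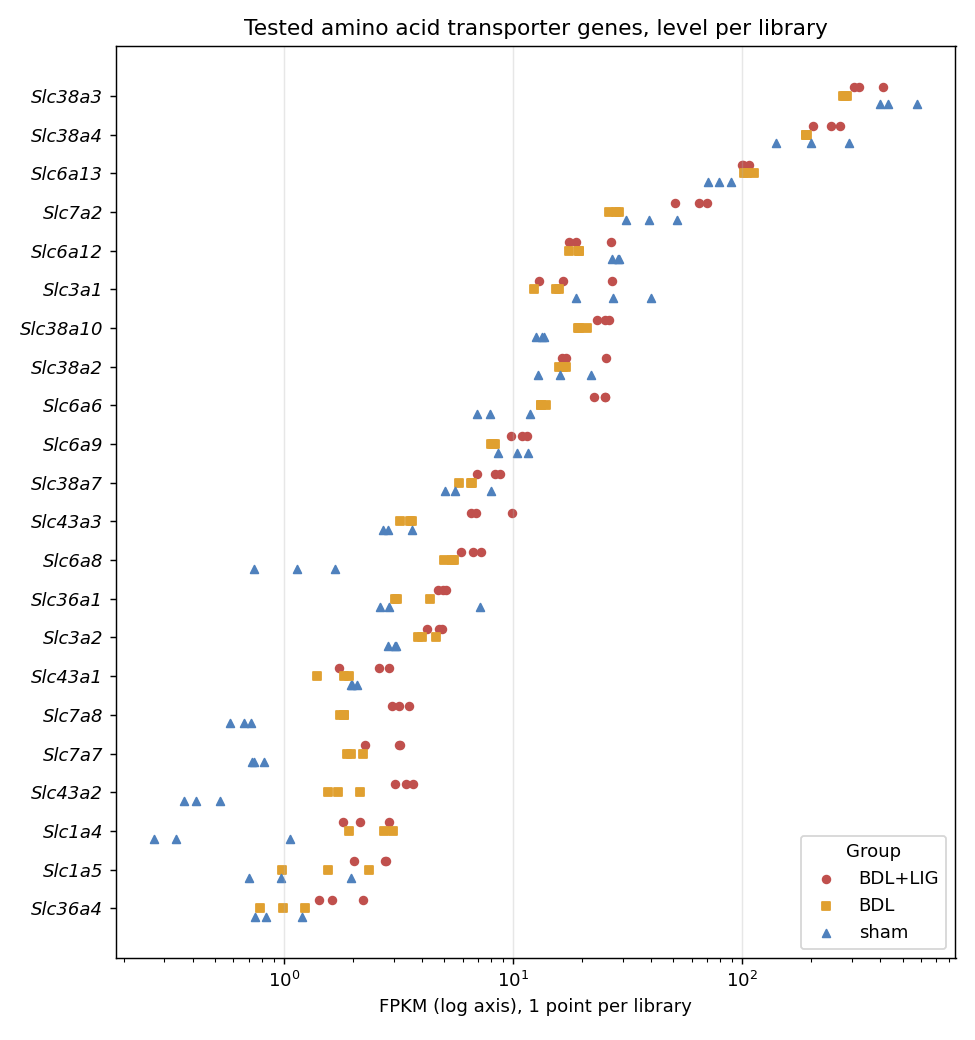
Level of the tested carriers in each library (FPKM, log axis), for BDL+LIG, BDL and sham, with a point for each of 3 libraries per group. Slc38a3 and Slc38a4 lie highest, at 139.9 FPKM or more, and Slc43a2, Slc7a7 and Slc7a8 are under 1 FPKM in all sham libraries and over 1 FPKM in all libraries of both ligated groups.

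Of the 22 tested carriers, 9 were higher (40.9%), 3 were lower and 10 were not called in BDL against sham, where 22.9% of all 10142 tested genes were called higher and 6.76% lower (29.7% in either direction). With ligustilide, in BDL+LIG against BDL, 5 were higher (22.7%), 0 were lower and 17 were not called, with 9.98% of all tested genes called higher and 1.79% lower (11.8% together). Here limma at an unadjusted p under 0.05 gave 9 higher and 0 lower, and voom on recovered fragments gave 5 higher and 0 lower after adjustment. Ligation and ligustilide together, in BDL+LIG against sham, gave 13 higher and 1 lower (59.1% and 4.55%), with 43.7% and 8.92% of all tested genes (52.6% together). The median change of the carriers was 0.10 in BDL against sham, 0.31 in BDL+LIG against BDL and 0.50 in BDL+LIG against sham, against 0.16, 0.18 and 0.34 over all tested genes. Slc43a2, Slc7a7 and Slc7a8 entered the test through the ligated libraries alone. Slc1a4, Slc1a5 and Slc36a4 reached 1 FPKM in 1 sham library and Slc6a8 in 2, so these also passed the filter only with ligated libraries. Slc36a4, with 1 BDL library at that level, passed only with those of BDL+LIG. The counts thus describe the carriers that were tested and not all 49. The comparison of BDL with sham and that of BDL+LIG with BDL share the 3 BDL libraries.

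Those splits depend on the scaling. The FPKM of all genes summed to 489892 to 505514 in BDL+LIG, 548241 to 557731 in BDL and 539095 to 632751 in sham, and the median change of all genes lay above 0 in each comparison. With median-of-ratios scaling, which brought that median to -0.06, -0.03 and -0.09 in the 3 comparisons, 5 carriers were called higher and 5 lower in BDL against sham, 4 and 0 in BDL+LIG against BDL, and 7 and 4 in BDL+LIG against sham. Over all tested genes the split in BDL against sham was then 1462 higher and 1466 lower, against 2322 and 686 as deposited. For BDL+LIG against BDL it was 275 higher and 355 lower, against 1012 and 182 as deposited, and for BDL+LIG against sham 2149 and 2771, against 4430 and 905.

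**Figure D2:**
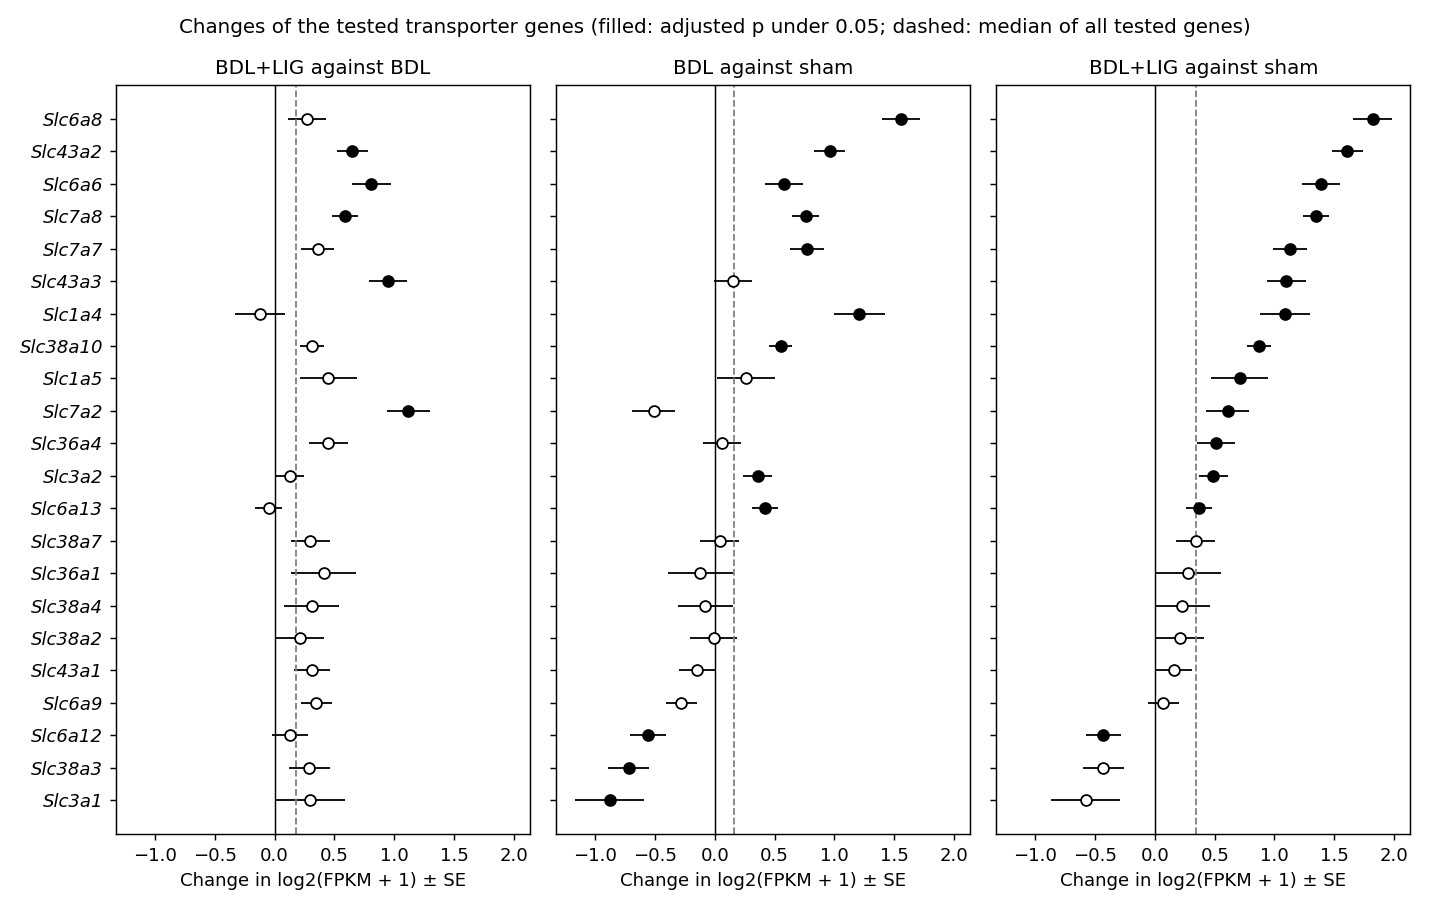
Change of the 22 tested carriers in BDL+LIG against BDL, BDL against sham and BDL+LIG against sham (log2 of FPKM + 1, with bars of 1 SE), with called changes as filled points and a dashed line at the median of all tested genes. Slc6a8, Slc1a4 and Slc43a2 have the largest changes on this scale in BDL against sham, and Slc7a2 and Slc43a3 in BDL+LIG against BDL.

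The sodium-driven carriers of small neutral amino acids were the most abundant. Slc38a3, which moves glutamine, asparagine and histidine in either direction across the hepatocyte membrane, was at 412, 307 and 324 FPKM in BDL+LIG libraries 1 to 3, at 287, 279.5 and 276 FPKM in BDL and at 580.3, 399 and 431 FPKM in sham. All BDL libraries were below all BDL+LIG libraries, which overlapped sham. Slc38a3 fell in BDL to 281 ± 5.81 FPKM (SD, n = 3), against 470.0 ± 96.9 FPKM in sham (SD, n = 3), 0.598 times the sham mean, with a log2 change of -0.72 ± 0.17 (adjusted p = 0.00894). It averaged 348 ± 56.8 FPKM in BDL+LIG (SD, n = 3), and neither 0.29 ± 0.17 against BDL (adjusted p = 0.249) nor -0.43 ± 0.17 against sham (adjusted p = 0.0530) passed. The fall in BDL was called in each of the 9 fits that left out a library, between -0.83 and -0.56. The change in BDL+LIG against sham was called as a fall in 2 of these 9 and in 5 of 14 fits with other settings. Median-of-ratios scaling put it at -0.98 (adjusted p = 0.00193, limma). The summed level of the hepatocyte markers, most of it from Alb, was also lower in BDL than in sham, with 2 of the 6 markers called lower, and its part in the result was not tested.

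Slc38a4, the system A carrier that is imprinted in the mouse, was at 266, 203 and 243 FPKM in BDL+LIG, 189, 189.9 and 191 FPKM in BDL and 292, 199 and 139.9 FPKM in sham. Its 3 BDL libraries fell within the range of sham, which was wide, and the changes of -0.08 ± 0.23 in BDL against sham and 0.31 ± 0.23 in BDL+LIG against BDL did not pass (adjusted p = 0.816 and 0.363). Slc38a3 over Slc38a4 was 1.55, 1.51 and 1.33 in BDL+LIG, 1.52, 1.47 and 1.45 in BDL and 1.99, 2.00 and 3.08 in sham. The ratio was thus lower in each ligated library than in each sham library, at the smallest p that an exact two-sided permutation test of 3 against 3 can give (p = 0.1 for each ligated group), while BDL+LIG and BDL overlapped (exact permutation p = 0.9). Slc38a2, the system A carrier that cells raise when amino acids run short, was at 17.0, 25.3 and 16.3 FPKM in BDL+LIG, 16.5, 17.0 and 15.8 FPKM in BDL and 21.9, 16.0 and 12.8 FPKM in sham. All 3 groups overlapped, and its changes of 0.21 ± 0.20 in BDL+LIG against BDL (adjusted p = 0.496) and -0.01 ± 0.20 in BDL against sham (adjusted p = 0.987) did not pass.

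Of the remaining Slc38 genes, Slc38a10 and Slc38a7 were tested. Slc38a10, a broadly expressed and less characterised carrier, was at 23.2, 26.2 and 25.1 FPKM in BDL+LIG, 19.2, 21.0 and 19.3 FPKM in BDL and 12.5, 13.7 and 13.4 FPKM in sham, with no overlap between any groups. It rose 1.50-fold in BDL against sham (0.55 ± 0.10, adjusted p = 0.00291) and 1.88-fold in BDL+LIG against sham (0.87 ± 0.10, adjusted p = 0.000108), and both calls were lost with median-of-ratios scaling, at 0.28 and 0.33. Between BDL+LIG and BDL its change was 0.31 ± 0.10 (adjusted p = 0.0731). Slc38a7, a lysosomal exporter of glutamine and asparagine, averaged 8.01 ± 0.962 FPKM in BDL+LIG, 6.30 ± 0.449 FPKM in BDL and 6.21 ± 1.59 FPKM in sham (SD, n = 3 each), and was not called in any comparison. Slc38a9, a lysosomal arginine sensor, lay between 0.332 and 1.16 FPKM and Slc38a6 between 0.369 and 0.916 FPKM over all 9 libraries, and neither was tested.

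The neutral exchangers of Slc1 were low in sham liver, and Slc1a4 rose after ligation. Slc1a4, a sodium-dependent exchanger of alanine, serine and cysteine, was at 1.81, 2.87 and 2.13 FPKM in BDL+LIG, 1.92, 2.73 and 3.00 FPKM in BDL and 1.06, 0.338 and 0.270 FPKM in sham. Every ligated library was above every sham library, and the ligated groups overlapped. It rose in BDL against sham by 1.21 ± 0.21 (4.59-fold, adjusted p = 0.00199) and in BDL+LIG against sham by 1.09 ± 0.21 (4.09-fold, adjusted p = 0.00174), with -0.12 ± 0.21 in BDL+LIG against BDL (adjusted p = 0.726). Slc1a5, the related exchanger that also takes glutamine, was at 2.02, 2.76 and 2.79 FPKM in BDL+LIG, 0.973, 1.55 and 2.35 FPKM in BDL and 1.96, 0.969 and 0.703 FPKM in sham. Only BDL+LIG and sham did not overlap, and Slc1a5 rose between them by 0.71 ± 0.24 (2.09-fold, adjusted p = 0.0295), a call kept in 5 of the 9 fits that left out a library (0.54 to 0.94 over the 9, lost without BDL+LIG library 2 or 3 or sham library 2 or 3) and lost with median-of-ratios scaling at 0.37. In BDL against sham its change was 0.26 ± 0.24 (adjusted p = 0.457).

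The light chains carry large neutral and cationic amino acids in exchange. Slc7a8, a light chain for neutral amino acids of any size, was at 2.96, 3.17 and 3.51 FPKM in BDL+LIG, 1.82, 1.76 and 1.82 FPKM in BDL and 0.577, 0.719 and 0.671 FPKM in sham. The 3 groups did not overlap. It rose 2.75-fold in BDL against sham (0.76 ± 0.11, adjusted p = 0.000862) and 1.79-fold in BDL+LIG against BDL (0.59 ± 0.11, adjusted p = 0.0166). Slc7a7, which exchanges cationic amino acids for neutral ones and sodium, was at 2.26, 3.18 and 3.20 FPKM in BDL+LIG, 1.88, 1.95 and 2.21 FPKM in BDL and 0.813, 0.726 and 0.736 FPKM in sham. Here too the groups did not overlap, and the rise was 2.65-fold in BDL against sham (0.77 ± 0.14, adjusted p = 0.00198), with 0.36 ± 0.14 in BDL+LIG against BDL (adjusted p = 0.102). Slc7a8 and Slc7a7 were called in BDL against sham in all 9 fits that left out a library. Slc7a5, the light chain of growing and activated cells, stayed low, at 0.540, 1.20 and 0.668 FPKM in BDL+LIG, 0.419, 0.392 and 0.482 FPKM in BDL and 0.392, 0.788 and 0.367 FPKM in sham. Its BDL+LIG libraries lay above all BDL libraries, and sham overlapped both groups.

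The heavy chains were called in opposite directions in BDL against sham, each in only some of the fits. Slc3a2, the partner of Slc7a5 to Slc7a8, was at 4.74, 4.89 and 4.20 FPKM in BDL+LIG, 4.60, 3.98 and 3.84 FPKM in BDL and 2.85, 3.03 and 3.08 FPKM in sham. It rose 1.39-fold in BDL against sham (0.36 ± 0.12, adjusted p = 0.0455), a call that stood in 1 of the 9 fits that left out a library, that without sham library 1 (0.30 to 0.41 over the 9), and 1.54-fold in BDL+LIG against sham (0.49 ± 0.12, adjusted p = 0.00670), a call that stood in all 9 and was lost with median-of-ratios scaling at 0.05. That scaling also lost the call of Slc3a2 in BDL against sham, at 0.14 (adjusted p = 0.493, limma). Slc3a1, the heavy chain of the cystine carrier, was at 27.1, 16.5 and 13.0 FPKM in BDL+LIG, 12.3, 15.3 and 15.8 FPKM in BDL and 40.1, 27.1 and 18.7 FPKM in sham. All BDL libraries lay below all sham libraries and BDL+LIG overlapped both groups. Its fall of 0.88 ± 0.29 on the log2 scale in BDL (0.506 times the sham mean, adjusted p = 0.0426) stood in 3 of 9 such fits (-1.14 to -0.61). It was lost without any 1 BDL library, without BDL+LIG library 2, without sham library 2 and without sham library 1, at -0.61 (adjusted p = 0.0869). Slc7a9, the light chain that pairs with Slc3a1 in kidney, was listed at 0 in 8 of the 9 libraries and at 0.0125 FPKM in BDL library 3.

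Summed over Slc7a5, Slc7a6, Slc7a7 and Slc7a8, the light chains reached 5.89, 7.66 and 7.49 FPKM in BDL+LIG, 4.19, 4.17 and 4.60 FPKM in BDL and 1.79, 2.23 and 1.79 FPKM in sham. The ratio of that sum to the heavy chain Slc3a2 was 1.24, 1.57 and 1.78 in BDL+LIG, 0.910, 1.05 and 1.20 in BDL and 0.630, 0.737 and 0.579 in sham. The groups followed that order without overlap, at the smallest p the exact permutation test can give in each comparison (p = 0.1, two-sided). Being formed within a library, the ratio does not change with a scaling factor per library.

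**Figure D3:**
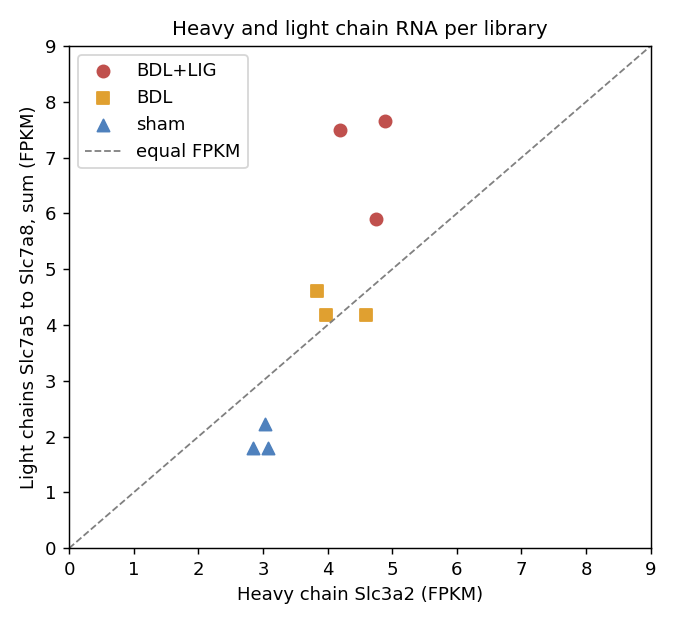
Summed FPKM of the light chains Slc7a5, Slc7a6, Slc7a7 and Slc7a8 (vertical axis) against the FPKM of the heavy chain Slc3a2 (horizontal axis), with 1 point per library of BDL+LIG, BDL and sham and a dashed line of equal FPKM. The ratio of the vertical to the horizontal value is 1.24 to 1.78 in BDL+LIG, 0.910 to 1.20 in BDL and 0.579 to 0.737 in sham.

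Slc43a2, a facilitated carrier of branched-chain amino acids, phenylalanine and methionine, was at 3.05, 3.40 and 3.66 FPKM in BDL+LIG, 1.55, 1.71 and 2.14 FPKM in BDL and 0.525, 0.410 and 0.364 FPKM in sham. The groups did not overlap in any comparison, and the gene rose 4.16-fold in BDL against sham (0.96 ± 0.13, adjusted p = 0.000402), 1.87-fold in BDL+LIG against BDL (0.65 ± 0.13, adjusted p = 0.0182) and 7.79-fold in BDL+LIG against sham (1.61 ± 0.13, adjusted p = 1.11e-05). Slc43a3, the purine base carrier of the family, was at 6.87, 9.89 and 6.50 FPKM in BDL+LIG, 3.62, 3.54 and 3.21 FPKM in BDL and 3.59, 2.69 and 2.84 FPKM in sham. BDL overlapped sham while each BDL+LIG library was above both, and Slc43a3 rose 2.24-fold in BDL+LIG against BDL (0.95 ± 0.16, adjusted p = 0.0131), with 0.15 ± 0.16 in BDL against sham (adjusted p = 0.540). Slc43a1, the other branched-chain carrier of the family, averaged 2.40 ± 0.588 FPKM in BDL+LIG, 1.72 ± 0.282 FPKM in BDL and 2.01 ± 0.0710 FPKM in sham (SD, n = 3 each). Its BDL libraries lay below all sham libraries, BDL+LIG overlapped both groups, and no change was called.

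The upstream sequences of Slc43a2, Slc7a7 and Slc1a4 are shown because these 3 carriers had the smallest p among those that rose in BDL and have a RefSeq window clear of annotated exons. Each is the 250 bases before an annotated start in mouse build GRCm38.p6, printed 5′ to 3′ on the strand of the gene. Slc43a2 is at chr11:75531444-75531693 on the plus strand, Slc7a7 at chr14:54409473-54409722 and, for its upstream start, at chr14:54417945-54418194, both on the minus strand, and Slc1a4 at chr11:20332714-20332963 on the minus strand. The table of values uses build GRCm39, and no coordinates were converted. Capitals mark the only match of the 4 motifs searched.
Slc43a2: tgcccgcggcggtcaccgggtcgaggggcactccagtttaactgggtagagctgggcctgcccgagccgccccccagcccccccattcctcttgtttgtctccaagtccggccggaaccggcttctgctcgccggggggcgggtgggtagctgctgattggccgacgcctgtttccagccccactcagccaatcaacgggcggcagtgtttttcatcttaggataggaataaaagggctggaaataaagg
Slc7a7 downstream start: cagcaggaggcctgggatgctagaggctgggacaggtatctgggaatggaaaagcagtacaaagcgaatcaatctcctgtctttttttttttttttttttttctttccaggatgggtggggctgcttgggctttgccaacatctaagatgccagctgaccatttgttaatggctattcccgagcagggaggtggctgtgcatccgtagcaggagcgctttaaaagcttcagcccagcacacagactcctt
Slc7a7 upstream start: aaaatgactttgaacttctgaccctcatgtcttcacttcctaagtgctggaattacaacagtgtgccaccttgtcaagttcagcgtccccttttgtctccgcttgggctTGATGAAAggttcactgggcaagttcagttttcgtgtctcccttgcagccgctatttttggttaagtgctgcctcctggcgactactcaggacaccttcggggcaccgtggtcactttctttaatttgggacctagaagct
Slc1a4: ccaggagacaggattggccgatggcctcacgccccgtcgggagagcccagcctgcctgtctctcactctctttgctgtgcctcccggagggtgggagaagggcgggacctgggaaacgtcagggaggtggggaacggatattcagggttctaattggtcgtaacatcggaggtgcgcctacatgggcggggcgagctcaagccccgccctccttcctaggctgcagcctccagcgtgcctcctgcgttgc
The motif in capitals is TGATGNAA, the composite of C/EBP and ATF factors known from stress response genes, and it begins 141 bases before the upstream start of Slc7a7. On both strands it occurred in 3.45% of 32851 RefSeq windows of the same length and in 2 of the 31 windows of tested carriers, both of Slc7a7 and 1 of them shown. The AP-1 motif TGANTCA occurred in 6.75% of all windows and in 4 of the 31 (Slc38a10, Slc38a7, Slc3a1 and Slc6a12). The E-box CACGTG occurred in 6.02% of all windows and in 3 of the 31 (Slc36a1, Slc38a7 and Slc43a1), and the STAT motif TTCNNNGAA in 7.02% and in 0. A match describes letters in these windows, which covered 16 of the 22 tested carriers.

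The cationic carrier Slc7a2 rose with ligustilide. Slc7a2, which brings arginine, lysine and ornithine into hepatocytes and also serves activated macrophages, was at 69.8, 50.8 and 64.6 FPKM in BDL+LIG, 28.8, 28.0 and 26.2 FPKM in BDL and 51.7, 39.1 and 31.2 FPKM in sham. The BDL libraries were below all others, and BDL+LIG library 2 lay below sham library 1. Slc7a2 averaged 61.7 ± 9.81 FPKM in BDL+LIG and 27.7 ± 1.38 FPKM in BDL (SD, n = 3 each), a 2.23-fold rise (1.12 ± 0.18, adjusted p = 0.0124) and the largest difference of log2(FPKM + 1) among the carriers in that comparison, although the ratio of means of Slc43a3 was slightly larger. Against sham, at 40.7 ± 10.4 FPKM (SD, n = 3), BDL+LIG was 1.52-fold higher (0.61 ± 0.18, adjusted p = 0.0166), a call lost with median-of-ratios scaling at 0.06, with quantile normalization and without BDL+LIG library 1 or 3 or sham library 3 (0.44 to 0.79 over 9 fits without a library). BDL was 0.680 times sham (-0.51 ± 0.18, adjusted p = 0.0562), and without sham library 1 its change was -0.33 (adjusted p = 0.102), while median-of-ratios scaling gave -0.80 with a call.

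Slc7a1, the widespread cationic carrier that hepatocytes hardly express, was at 0.498, 0.571 and 0.345 FPKM in BDL+LIG, 0.183, 0.160 and 0.160 FPKM in BDL and 0.116, 0.0115 and 0.0233 FPKM in sham, which is 147, 166 and 101, then 55, 48 and 41, and then 31, 3 and 6 fragments. The groups did not overlap. Slc7a4, whose transport function is unsettled, had 65, 115 and 70 fragments in BDL+LIG, 27, 71 and 45 in BDL and 26, 39 and 7 in sham, with overlap between neighbouring groups.

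The Slc36 carriers were present at low levels. Slc36a1, which releases small amino acids from lysosomes, was at 4.71, 5.08 and 4.94 FPKM in BDL+LIG, 3.03, 3.11 and 4.34 FPKM in BDL and 7.16, 2.61 and 2.87 FPKM in sham. BDL+LIG was above BDL in every library, and sham library 1 was above all others. Its changes were 0.41 ± 0.27 in BDL+LIG against BDL and -0.12 ± 0.27 in BDL against sham (adjusted p = 0.323 and 0.773). Slc36a4, a carrier of proline and tryptophan, was at 1.62, 2.21 and 1.42 FPKM in BDL+LIG, 0.782, 0.985 and 1.23 FPKM in BDL and 1.19, 0.743 and 0.834 FPKM in sham. BDL+LIG was above all other libraries, BDL and sham overlapped, and Slc36a4 rose 1.89-fold in BDL+LIG against sham (0.51 ± 0.16, adjusted p = 0.0184), with 0.45 ± 0.16 against BDL (adjusted p = 0.0768). The call against sham was lost with median-of-ratios scaling at 0.20 and without BDL+LIG library 2 or sham library 2 or 3 (0.39 to 0.61 over 9 fits without a library).

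The osmolyte and creatine carriers of Slc6 changed in both directions. Slc6a8, the creatine carrier, was at 5.93, 7.24 and 6.69 FPKM in BDL+LIG, 4.99, 5.41 and 5.53 FPKM in BDL and 1.66, 0.738 and 1.14 FPKM in sham. The 3 groups did not overlap, and Slc6a8 rose 4.51-fold in BDL against sham (1.56 ± 0.16, adjusted p = 7.73e-05), the largest difference of log2(FPKM + 1) among the 22 carriers in that comparison although Slc1a4 had the larger ratio of means, while BDL+LIG against BDL gave 0.27 ± 0.16 (adjusted p = 0.277). Slc6a6, the taurine carrier, was at 25.2, 25.0 and 22.6 FPKM in BDL+LIG, 13.2, 13.2 and 13.8 FPKM in BDL and 11.8, 7.87 and 6.93 FPKM in sham. Its groups did not overlap either. Slc6a6 rose 1.51-fold in BDL against sham (0.58 ± 0.16, adjusted p = 0.0238) and 1.81-fold in BDL+LIG against BDL (0.81 ± 0.16, adjusted p = 0.0190), and the first of these calls stood in 4 of 9 fits without a library (0.43 to 0.78, lost without any 1 BDL library, sham library 2 or sham library 3) and was lost with median-of-ratios scaling, at 0.32. Without sham library 1 the first change was 0.78 (adjusted p = 0.000457).

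Slc6a13, which carries GABA and taurine and is found on periportal hepatocytes, was at 99.9, 107 and 101 FPKM in BDL+LIG, 102, 105 and 112 FPKM in BDL and 89.3, 70.8 and 79.1 FPKM in sham. Slc6a12, its close relative that carries betaine and GABA, was at 26.7, 17.6 and 18.7 FPKM in BDL+LIG, 19.4, 19.4 and 17.6 FPKM in BDL and 27.0, 28.8 and 28.8 FPKM in sham. For both genes the ligated libraries did not overlap sham and overlapped each other, Slc6a13 lying above sham and Slc6a12 below it. Slc6a13 rose in BDL against sham by 0.42 ± 0.11 (adjusted p = 0.0203) and in BDL+LIG against sham by 0.37 ± 0.11 (adjusted p = 0.0206), but median-of-ratios scaling gave 0.13 and -0.19 with no call. Slc6a12 fell by 0.56 ± 0.15 in BDL (adjusted p = 0.0172) and by 0.43 ± 0.15 in BDL+LIG (adjusted p = 0.0329), on the log2 scale. Of 9 fits without a library, 6 and 7 kept the 2 calls of Slc6a13 (0.33 to 0.50 in BDL and 0.29 to 0.45 in BDL+LIG), and 6 and 3 those of Slc6a12 (-0.59 to -0.52 and -0.61 to -0.32), and all 4 calls were lost without sham library 2. Both BDL calls were also lost without BDL library 2 or 3, both BDL+LIG calls without BDL+LIG library 2, and that of Slc6a12 without BDL+LIG library 3, BDL library 1 or 2 or sham library 3. Slc6a13 over Slc6a12, again formed within a library, was 3.74, 6.11 and 5.41 in BDL+LIG, 5.25, 5.43 and 6.38 in BDL and 3.31, 2.46 and 2.75 in sham. Each ligated library exceeded each sham library, and BDL+LIG overlapped BDL (exact two-sided permutation p = 0.1, 0.1 and 0.5 for BDL against sham, BDL+LIG against sham and BDL+LIG against BDL).

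Slc6a9, the glycine carrier, was at 11.4, 10.9 and 9.75 FPKM in BDL+LIG, 8.34, 7.98 and 8.18 FPKM in BDL and 10.4, 8.58 and 11.6 FPKM in sham. Its BDL libraries lay below all other libraries, and no change passed, with 0.35 ± 0.13 in BDL+LIG against BDL (adjusted p = 0.0939), -0.28 ± 0.13 in BDL against sham (adjusted p = 0.135) and 0.07 ± 0.13 in BDL+LIG against sham (adjusted p = 0.647). Median-of-ratios scaling turned the last of these to -0.44 (adjusted p = 0.0348) and gave -0.54 in BDL against sham (adjusted p = 0.0213), both called as falls.

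Across the tested carriers, the calls in BDL against sham, and likewise those in BDL+LIG against BDL, fell only on genes whose libraries did not overlap between the groups. In BDL against sham 9 carriers lay wholly above sham and 6 wholly below it, with 33.7% and 11.3% of all tested genes doing so. Likewise 14 lay wholly above BDL in BDL+LIG and 0 below it, with 40.7% and 10.5% of all tested genes. Against sham, 12 lay wholly above in BDL+LIG and 1 wholly below, with 45.7% and 9.71% of all tested genes. Slc43a2, Slc7a8 and Slc6a6 were called higher in both BDL against sham and BDL+LIG against BDL, and Slc7a2 and Slc43a3 in the second alone, for which the difference between the comparisons was not tested. Slc38a2, Slc38a4, Slc38a7, Slc36a1, Slc43a1 and Slc6a9 were called in none of the 3 comparisons.

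**Figure D4:**
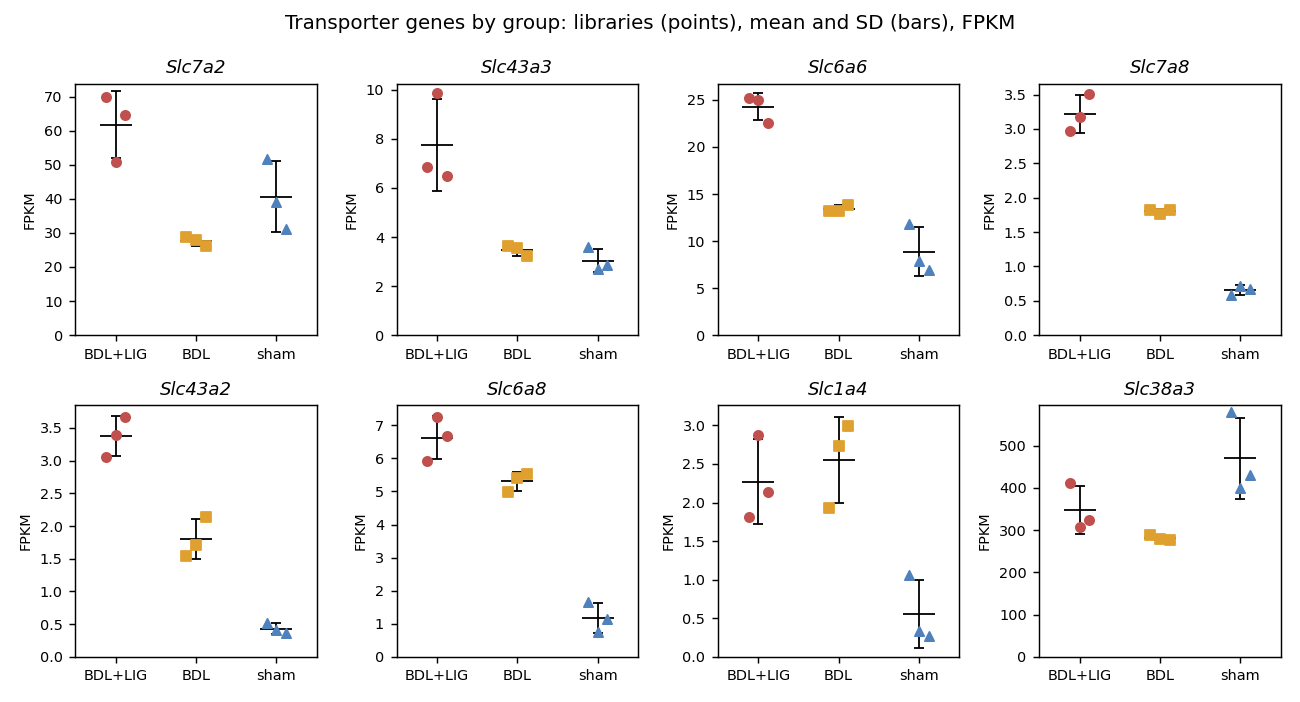
FPKM of Slc7a2, Slc43a3, Slc6a6, Slc7a8, Slc43a2, Slc6a8, Slc1a4 and Slc38a3 in BDL+LIG, BDL and sham, with 1 point per library, a bar at the mean of 3 libraries and whiskers of 1 SD. Slc7a2, Slc43a3, Slc7a8, Slc43a2 and Slc6a6 have all BDL+LIG libraries above all BDL libraries.

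The 5 calls with ligustilide were lost when any 1 BDL library was left out. Without BDL library 1, 2 or 3 limma called 0 carriers in BDL+LIG against BDL, with 7, 7 and 9 higher and 0 lower at an unadjusted p under 0.05, and called 40, 0 and 54 of all 10142 genes in place of 1194 (2236, 2317 and 2595 at an unadjusted p under 0.05). The sizes changed little: Slc7a2 lay between 1.03 and 1.25 and Slc43a3 between 0.79 and 1.06 over all 9 fits without a library, and Slc6a6 between 0.78 and 0.86, Slc43a2 between 0.58 and 0.73 and Slc7a8 between 0.54 and 0.63. Median-of-ratios scaling kept the calls of Slc7a2, Slc43a3, Slc6a6 and Slc43a2 and lost that of Slc7a8 at 0.39. Without BDL+LIG library 3 the calls of Slc43a2 and Slc7a8 were lost too. Without BDL+LIG library 2 limma called 3 carriers higher, among them Slc7a2 and Slc43a3. In that fit the adjusted p of Slc43a2, Slc7a8 and Slc6a6 was 0.05 or more when rounded to 3 digits. Without sham library 1, which takes part only through the shared spread, 9 carriers were called higher and 3144 genes in all.

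Summed markers of endothelial, stellate, T and B cells were also higher in BDL+LIG than in BDL. The summed level of 6 endothelial markers was 33.8 to 52.6 FPKM in BDL+LIG, 22.3 to 24.3 FPKM in BDL and 18.1 to 21.4 FPKM in sham, and all 5 tested ones were called higher in BDL+LIG against BDL. Stellate cell and myofibroblast markers, 6 in number, summed to 32.2 to 50.1 FPKM in BDL+LIG, 20.5 to 30.2 FPKM in BDL and 4.04 to 13.0 FPKM in sham. All 6 were tested, 2 were called higher in BDL+LIG against BDL, and Acta2 had a lower mean in BDL+LIG than in BDL. B and plasma cell markers, 5 in number, summed to 5.23 to 8.34, 2.00 to 2.30 and 1.05 to 3.03 FPKM in the same order, and the 5 of T and NK cells to 2.93 to 11.1, 0.997 to 2.77 and 0.810 to 2.01 FPKM. Jchain, the 1 tested B and plasma cell marker, was called higher in BDL+LIG against BDL. Nkg7, the 1 tested T and NK cell marker, was not (adjusted p = 0.0632, limma). Neutrophil markers, 6 in number with Ly6g and Mpo under 1 FPKM, summed to 15.6 to 39.7 FPKM in BDL+LIG, 42.3 to 46.6 FPKM in BDL and 4.21 to 5.72 FPKM in sham, and the 4 platelet markers to 3.74 to 5.34, 2.39 to 6.94 and 1.04 to 2.22 FPKM. The kidney marker Umod was at most 0.0379 FPKM, and 3 markers of exocrine pancreas summed to 5.24 to 6.04 FPKM in BDL+LIG, 4.47 to 7.54 FPKM in BDL and 7.89 to 23.4 FPKM in sham. Nearly all of the pancreas sum was Cela1, at means of 5.75, 5.76 and 17.6 FPKM in that order. Prss2 and Ctrb1 were under 1 FPKM in all libraries and had a mean of 0 in BDL+LIG and in sham. The 13 carriers called higher in BDL+LIG against sham moved the same way as the macrophage and stellate markers. They include Slc7a8, Slc7a7, Slc43a2, Slc43a3, Slc1a4, Slc6a6 and Slc6a8. All tested cholangiocyte, neutrophil and endothelial markers were also called higher in that comparison, as were 43.7% of all tested genes. Of the 6 hepatocyte markers, 1 was called higher and 3 lower. The part of these cells in the results was not tested.

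The remaining 27 carriers were too low for the test, with a highest value of 1.20 FPKM, that of Slc7a5 in BDL+LIG library 2. Slc38a1, the system A carrier of most tissues other than liver, was at 0.679, 0.844 and 1.09 FPKM in BDL+LIG, 0.274, 0.457 and 0.486 FPKM in BDL and 0.0807, 0.0382 and 0.139 FPKM in sham, which is 241, 295 and 383, then 99, 165 and 150, and then 26, 12 and 43 fragments. The groups did not overlap. A further fit with voom on the recovered fragments of 14666 genes with at least 10 in at least 3 libraries, added after the data were seen, called 16.2% of genes higher and 5.36% lower in BDL against sham, 8.01% and 0.934% in BDL+LIG against BDL and 38.1% and 6.82% in BDL+LIG against sham. In that fit Slc38a1 rose by 2.29 ± 0.55 (adjusted p = 0.0121), 1.14 ± 0.32 (adjusted p = 0.0490) and 3.43 ± 0.52 (adjusted p = 0.000466) on the log2 scale in these comparisons. Slc7a1 rose by 2.24 ± 0.73 in BDL against sham (adjusted p = 0.0477) and by 3.71 ± 0.68 in BDL+LIG against sham (adjusted p = 0.00137), with 1.47 ± 0.43 in BDL+LIG against BDL (adjusted p = 0.0545). Without a filter on low values, limma on log2(FPKM + 1) called Slc38a1 in BDL against sham and BDL+LIG against sham (adjusted p = 0.0434 and 0.00111) but not in BDL+LIG against BDL (adjusted p = 0.0654). The same unfiltered fit did not call Slc7a1 in BDL against sham (adjusted p = 0.162) and called it in BDL+LIG against BDL (adjusted p = 0.0389) and in BDL+LIG against sham (adjusted p = 0.00126).

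Slc7a6, a light chain close to Slc7a7, had 67, 53 and 56 fragments in BDL+LIG, 37, 37 and 40 in BDL and 6, 0 and 6 in sham, with no overlap between groups. Voom called it higher in BDL against sham (adjusted p = 0.0138) and in BDL+LIG against sham (adjusted p = 0.00265) but not in BDL+LIG against BDL (adjusted p = 0.423). Slc1a1, a glutamate carrier of neurons and kidney, had 10, 38 and 41 fragments in BDL+LIG, 7, 9 and 14 in BDL and 5, 0 and 0 in sham. Voom called Slc1a1 and the above Slc7a4 higher in BDL+LIG against sham alone (adjusted p = 0.0116 and 0.0350). Slc6a16, an orphan carrier, had 36, 17 and 39 fragments in BDL+LIG, 12, 30 and 12 in BDL and 27, 35 and 99 in sham, and Slc6a4, the serotonin carrier, 2, 14 and 10, then 1, 2 and 12, and then 15, 9 and 0. The fragments of both overlapped between all groups. In FPKM, which allows for depth, the highest BDL library of Slc6a16 (0.2308) lay just below its lowest sham library (0.2326). The other 17 had fewer than 10 fragments in at least 7 libraries, among them the glutamate carriers Slc1a3, Slc1a6 and Slc1a7, the Slc36 genes Slc36a2 and Slc36a3, Slc38a5 and Slc38a11, the noradrenaline carrier Slc6a2, the amino acid carriers Slc6a7, Slc6a14, Slc6a17 and Slc6a19, Slc6a21, and Slc7a3, Slc7a9 and Slc7a15. At this depth they were not detectable as more than traces.

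**Figure D5:**
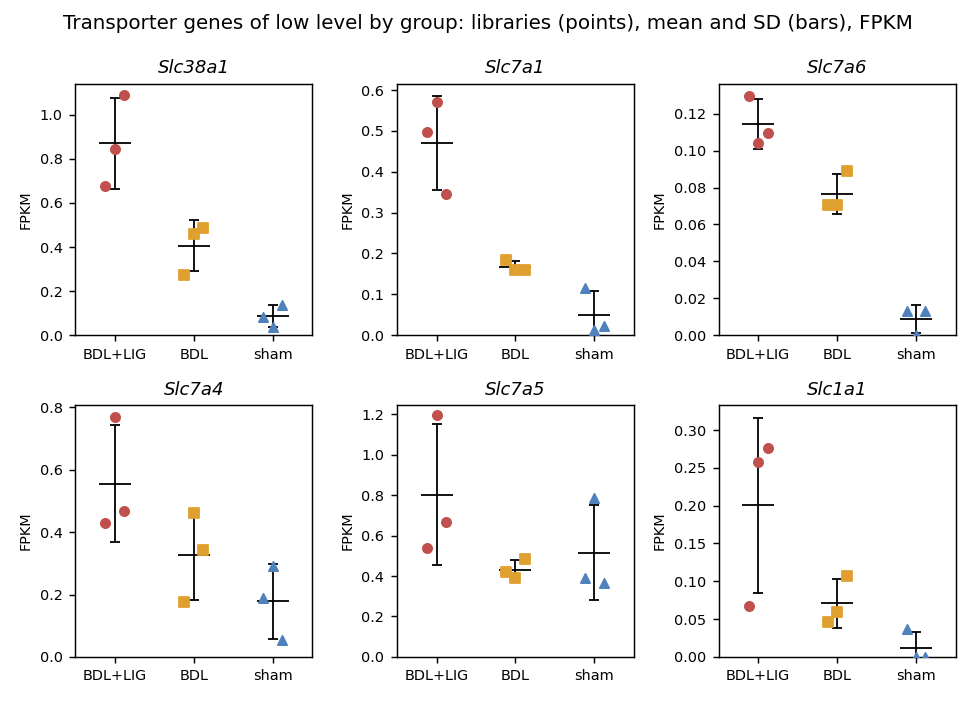
FPKM of the untested carriers Slc38a1, Slc7a1, Slc7a6, Slc7a4, Slc7a5 and Slc1a1 in BDL+LIG, BDL and sham, with 1 point per library, a bar at the mean of 3 libraries and whiskers of 1 SD. For Slc38a1, Slc7a1 and Slc7a6 all BDL+LIG libraries are above all BDL libraries and these above all sham libraries.

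Amino acid carriers outside these families gave the following counts. Of 18 listed genes 12 were tested, and 3 were higher and 1 lower in BDL against sham, 4 higher and 0 lower in BDL+LIG against BDL (7 higher and 0 lower at an unadjusted p under 0.05 in limma) and 6 higher and 0 lower in BDL+LIG against sham. The share called higher was 25.0%, 33.3% and 50% in that order, beside 22.9%, 9.98% and 43.7% of all tested genes. Their median change was -0.07, 0.41 and 0.41, against 0.16, 0.18 and 0.34 over all tested genes. Slc25a15, the mitochondrial ornithine carrier of the urea cycle, averaged 88.0 ± 4.04 FPKM in BDL+LIG, 58.0 ± 2.00 FPKM in BDL and 41.1 ± 3.80 FPKM in sham (SD, n = 3 each). It rose in BDL+LIG against BDL (0.59 ± 0.11, adjusted p = 0.0140) and in BDL against sham (0.49 ± 0.11, adjusted p = 0.00650). Slc25a13, the mitochondrial aspartate and glutamate carrier of liver, averaged 43.7 ± 0.605 FPKM in BDL+LIG, 29.6 ± 0.145 FPKM in BDL and 31.1 ± 1.79 FPKM in sham, and rose in BDL+LIG against BDL alone of these 2 comparisons (0.55 ± 0.10, adjusted p = 0.0137). Its close relative Slc25a12 was called in BDL+LIG against sham only (0.72 ± 0.15, adjusted p = 0.00286). The lysosomal histidine and peptide carriers Slc15a3 and Slc15a4 rose with ligustilide against BDL by 0.95 ± 0.24 and 0.70 ± 0.17 (adjusted p = 0.0337 and 0.0297), and Slc15a3 also in BDL against sham (1.11 ± 0.24, adjusted p = 0.00648). Slc16a10, a facilitated carrier of aromatic amino acids, rose in BDL against sham (0.57 ± 0.12, adjusted p = 0.00633), with 0.16 ± 0.12 in BDL+LIG against BDL.

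Cells that lack amino acids raise several carriers through the integrated stress response, and 18 of 20 listed genes of that response were tested. The list held the kinase Eif2ak4 and Atf4 itself beside genes linked to ATF4. In BDL against sham 4 were higher and 2 lower, in BDL+LIG against BDL 1 higher and 0 lower (4 higher and 0 lower at an unadjusted p under 0.05 in limma), and in BDL+LIG against sham 6 higher and 2 lower, with medians of 0.26, 0.00 and 0.33, against 0.16, 0.18 and 0.34 over all tested genes. The share called higher was 22.2%, 5.56% and 33.3%, beside 22.9%, 9.98% and 43.7% of all tested genes, so it was near or under that of all genes in each comparison. Atf3, a stress transcription factor, averaged 7.62 ± 1.56 FPKM in BDL+LIG, 9.70 ± 0.501 FPKM in BDL and 0.700 ± 0.197 FPKM in sham (SD, n = 3 each), a rise of 2.66 ± 0.16 in BDL against sham (adjusted p = 2.85e-06). Ddit4, an inhibitor of mTORC1, rose in BDL against sham by 2.47 ± 0.19 (adjusted p = 1.23e-05). Atf5 and Trib3, both targets of ATF4, fell in BDL against sham by 0.84 ± 0.15 and 0.86 ± 0.14 on the log2 scale (adjusted p = 0.00195 and 0.00143). Sesn2, a leucine-binding inhibitor of mTORC1, was the 1 listed gene that rose with ligustilide against BDL (0.80 ± 0.22, adjusted p = 0.0432). Phgdh, the first enzyme of serine synthesis, was called in BDL+LIG against sham (0.77 ± 0.13, adjusted p = 0.000703).

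Amino acids that enter through these carriers are sensed at the lysosome by proteins that control mTORC1, and 24 of 29 listed genes were tested. In BDL against sham 4 were higher and 1 lower, in BDL+LIG against BDL 6 higher and 0 lower (11 higher and 0 lower at an unadjusted p under 0.05 in limma), and in BDL+LIG against sham 12 higher and 1 lower, with medians of 0.00, 0.35 and 0.40, against 0.16, 0.18 and 0.34 over all tested genes. The share called higher was 16.7%, 25.0% and 50% in that order, beside 22.9%, 9.98% and 43.7% of all tested genes. Rragd, a Rag GTPase, averaged 4.10 ± 0.844 FPKM in BDL+LIG, 2.35 ± 0.618 FPKM in BDL and 0.0892 ± 0.0602 FPKM in sham (SD, n = 3 each), and rose in BDL against sham (1.61 ± 0.17, adjusted p = 9.64e-05) and in BDL+LIG against BDL (0.61 ± 0.17, adjusted p = 0.0485). Its relative Rragc rose in BDL against sham (0.67 ± 0.15, adjusted p = 0.00643). Sesn1 and Sesn3, relatives of Sesn2, rose in BDL+LIG against BDL by 0.94 ± 0.16 and 0.88 ± 0.17 (adjusted p = 0.0128 and 0.0146). Rptor, the subunit of mTORC1 that binds its substrates, and Depdc5, a subunit of the complex that turns Rag GTPases off, rose in the same comparison by 0.62 ± 0.13 and 0.45 ± 0.12 (adjusted p = 0.0207 and 0.0414). The list thus held both activators and inhibitors of mTORC1 among its risen genes. As for the carriers themselves, limma called 0 genes of these 3 lists in BDL+LIG against BDL when any 1 BDL library was left out.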

How the data were processed

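Per the labels' protocols, mouse liver RNA was isolated with TRIzol, quantified by NanoDrop, and converted to libraries using the VAHTS Universal V6 kit. Named in the submitters' processing notes are fastp, HISAT2 2.1.0, DESeq2 and build GRCm39, and neither annotation nor counting program is given in the sources used here. The authors deposited FPKM of 21470 genes in 9 libraries, tied to samples by their titles, from which group and replicate number were taken. Nothing states that strand was used in counting, so reads of a gene and of an overlapping or antisense gene cannot be told apart, and near-identical paralogs may share reads.

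Changes were tested on log2(FPKM + 1) with limma 3.58.1 (lmFit, then eBayes with its trend option; R 4.3.3), with 1 coefficient per group over all 9 libraries, for the 10142 genes that reached 1 FPKM in 3 or more libraries. P-values were adjusted by the Benjamini-Hochberg method across those genes in each of 3 comparisons, with a threshold of 0.05. The script was tested on simulated data. Single ratios were compared by exact permutation of libraries, for which 0.1 is the smallest two-sided p with 3 libraries a group. Whole fragments were recovered from the steps of the deposited FPKM for 19446 of 19449 genes above 0 in at least 2 libraries (99.98%, within 0.02 fragments), and depth differed at most 1.21 times between libraries. Recovered fragments gave the depth and the alternatives with voom, and every pair of libraries within a group differed by more than sampling noise. They are not counted by molecular identifiers, so they may carry more than counting error.

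The carriers, gene lists and marker lists were chosen with earlier results of these data known. The text gives values in every library for carriers called in any comparison and for the 10 of highest mean, and names up to 6 called genes of each other list by smallest p. Promoter windows are from RefSeq (GRCm38.p6), which held 35 of the 49 carriers. One untested carrier is not reported here. Alternatives were other pseudocounts (0.1, 0.5), filters (none, or a mean of 5 FPKM or more) and scalings, 2 groups alone, a replicate block, robust eBayes, voom, and each library left out in turn. Removal of a trend with gene length, weights per group and voom on genes with at least 10 fragments were added after seeing the data.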

Additional observations from a re-analysis of the deposited data

How the results depend on the processing

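Over 66 pairs of a tested carrier and a comparison, the alternatives gave 1485 values, of which 1342 stayed on the same side of the threshold, 101 lost the call and 40 gained one. The sign was opposite in 41, of which 2 were called in either fit. Both of these came with median-of-ratios scaling in BDL+LIG against sham, Slc6a13 at -0.19 against 0.37 and Slc6a9 at -0.44 against 0.07. Called rises of carriers in BDL against sham (9) numbered 6 to 9 with a library left out, 3 with a mean of at least 5 FPKM, which tests fewer carriers, and 5 with median-of-ratios scaling. Falls (3) numbered 1 to 4 and, with median-of-ratios scaling, 5. Rises in BDL+LIG against BDL (5) numbered 0 to 9 with a library left out, 2 with a mean of at least 5 FPKM, 9 with rescaling to TPM, with the 2 groups alone and with weights per group, and 3 with the gene length trend removed. Without BDL+LIG library 2 there were 3, and without library 3 there were also 3. Rises in BDL+LIG against sham (13) numbered 10 to 16, 4 with a mean of at least 5 FPKM and 7 with median-of-ratios scaling. Falls there (1) numbered 0 to 3, 4 under median-of-ratios scaling, 2 with the quantile normalization, the replicate block, both voom fits and the length trend removed, and 0 with no filter, TPM, 2 groups alone and weights per group.

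Calls among other amino acid carriers were 3 to 5 (4 in the fit reported) in BDL against sham and 6 to 7 (6) in BDL+LIG against sham with a library left out. In BDL+LIG against BDL (4) they were 0 to 7, 0 when scaled by median of ratios, 2 with quantile normalization or no filter and 7 with 2 groups alone or weights per group. Calls among the listed stress response genes were 4 to 9 (6) in BDL against sham and 6 to 10 (8, or 3 with a mean of at least 5 FPKM) in BDL+LIG against sham. In BDL+LIG against BDL (1) they were 0 to 4, 0 with either pseudocount, median-of-ratios scaling, the block, quantile normalization, both voom fits, no filter and the 5 FPKM filter, 3 with TPM and 4 with 2 groups alone, weights or the length trend removed. Calls among mTORC1 sensing genes were 3 to 7 (5) in BDL against sham, with 3 for 2 groups alone, and 10 to 18 (13, or 6 with a mean of at least 5 FPKM) in BDL+LIG against sham. In BDL+LIG against BDL (6) they were 0 to 11, 3 with a pseudocount of 0.1 or the block, 0 with a mean of at least 5 FPKM, 2 with quantile normalization, median-of-ratios scaling or the length trend removed, and 12 with 2 groups alone or weights. Where the construction does not show it, the cause was not tested.

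Libraries of the same number did not pair throughout: their deviations from group means correlated between -0.126 and 0.285. Those of different number correlated between -0.304 and 0.14. The highest values were those of BDL+LIG with sham, at 0.285 for libraries 3 and 0.254 for libraries 1. With the replicate block 8 carriers were higher and 4 lower in BDL against sham, 5 and 0 in BDL+LIG against BDL and 12 and 2 in BDL+LIG against sham. With 3 libraries a group, depth limits the untested carriers to differences of many fragments.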
